A study of Mus musculus with 6 samples.

Results

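Collagens are secreted proteins whose chains wind into triple helices, and they form much of the matrix around animal cells. The collagen genes described here are all genes of the deposited table whose mouse symbol is Col, a type number, a and a chain number. They are 44 of 22600 genes: 11 fibrillar, 6 of basement membranes, 9 FACITs (collagens that bind to the surface of fibrils) and 18 of other kinds, such as the beaded filaments of type VI, the networks of type VIII, anchoring fibrils and transmembrane collagens. A chain is hydroxylated and folded in the endoplasmic reticulum, secreted, trimmed of its propeptides and crosslinked outside the cell. Fibrillar collagens are known as the load-bearing product of fibroblasts and other mesenchymal cells, and type IV collagen as the network of basement membranes, which early embryos and embryonic stem (ES) cells also make.

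RNA-seq was done on mouse ES cells and on FLICs, which the labels give as differentiated ES cells, all on a C57BL/6 background and cultured for 96 h in 10 cm plates. Cells were untreated and labelled wild-type, or were given OHT, known as the tamoxifen metabolite hydroxytamoxifen, for 3 days and labelled TRF2-/-. TRF2, encoded by Terf2, protects chromosome ends, and the series asks how pluripotent and differentiated cells do without it. There were 2 libraries of untreated ES cells, 2 of OHT ES cells, 1 of untreated FLICs and 1 of OHT FLICs. No group received OHT while keeping TRF2, so effects of OHT and of the loss of TRF2 cannot be told apart. The labels name neither the promoter that drives the recombinase nor the number of clones, and they do not say that replicates came from separate cultures. The p-values therefore measure only the spread between these libraries, which may be technical.

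Total counts per library ran from 23534551 to 43965309, and a count of 0 allows up to 3 counts, or 0.0686 to 0.118 CPM, that is, counts scaled to a common library size. Terf2 followed the labels: 554 and 732 counts in ES cells left untreated, 9 and 10 in those given OHT, and 268 and 5 in FLICs without and with OHT. All 10 ES cell marker genes tested fell in FLICs (edgeR, both treatments). Over all genes tested, 26.2% rose and 28.7% fell untreated, and 28.4% and 29.3% with OHT. Of 12 fibroblast and mesenchyme markers, 11 were tested, and 9 rose in untreated FLICs while Thy1 and Pdgfra fell. Summed, those 12 stood at 276 to 409 CPM in ES cells and at 12707 and 15281 CPM in FLICs, much of it from Acta2. The parietal and primitive endoderm sum was also higher, at 148 and 174 CPM in untreated ES cells and 550 CPM in untreated FLICs. Of its 10 genes 5 rose and 5 fell there. Cartilage, skeletal muscle and neural marker sums were higher in FLICs too, and those of bone, endothelium and epithelium were lower. Prrx1, a mesenchymal transcription factor, had no count in any ES cell library and 27.1 and 34.9 CPM in FLICs. The OHT ES cell libraries lie apart from each other: Col18a1, for example, stood at 132 CPM in OHT replicate 1 and 244 CPM in OHT replicate 2. Summed levels, counts of calls and the genes named for OHT in ES cells are given below with and without each.

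Promoter sequences were taken from RefSeq (GRCm38.p6), which held 38 windows for 35 of the 44 genes. Col1a1, Col2a1, Col4a3, Col5a2, Col9a3, Col12a1, Col14a1, Col22a1 and Col26a1 had no entry. The windows below are the 250 bases before the annotated start, chosen after the values were seen. They show 1 fibrillar gene nearly silent in ES cells (Col3a1), 1 fibrillar gene that ES cells already express (Col5a1), 1 gene without a count in untreated ES cells (Col8a1), and the gene with the largest OHT difference in FLICs on the log2(CPM + 1) scale (Col6a2). Letters run 5′ to 3′ on the gene's strand, and capitals mark matches to 5 motifs on either strand. TATAAA is the core of the TATA box and CCAAT that of the CCAAT box. GGGCGG is the core of an Sp1 site, TGANTCA an AP-1 site and CATTCC the core bound by TEAD factors. Adjacent matches do not overlap.
Col3a1, chr1:45311288-45311537, plus strand: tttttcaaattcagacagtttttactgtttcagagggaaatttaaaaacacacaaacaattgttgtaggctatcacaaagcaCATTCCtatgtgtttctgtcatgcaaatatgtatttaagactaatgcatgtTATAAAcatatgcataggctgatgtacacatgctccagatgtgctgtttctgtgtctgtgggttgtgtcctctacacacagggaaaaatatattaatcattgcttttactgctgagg
Col5a1, chr2:27886175-27886424, plus strand: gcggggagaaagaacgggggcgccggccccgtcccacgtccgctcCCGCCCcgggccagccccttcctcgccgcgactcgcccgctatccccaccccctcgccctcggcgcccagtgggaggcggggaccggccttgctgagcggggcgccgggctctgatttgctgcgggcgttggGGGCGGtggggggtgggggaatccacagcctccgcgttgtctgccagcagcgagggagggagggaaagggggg
Col8a1, chr16:57754738-57754987, minus strand: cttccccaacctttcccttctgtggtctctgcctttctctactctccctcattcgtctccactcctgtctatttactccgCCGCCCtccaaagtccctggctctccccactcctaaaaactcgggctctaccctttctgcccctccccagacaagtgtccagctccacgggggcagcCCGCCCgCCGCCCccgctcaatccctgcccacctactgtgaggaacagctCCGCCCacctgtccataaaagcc
Col6a2, chr10:76623631-76623880, minus strand: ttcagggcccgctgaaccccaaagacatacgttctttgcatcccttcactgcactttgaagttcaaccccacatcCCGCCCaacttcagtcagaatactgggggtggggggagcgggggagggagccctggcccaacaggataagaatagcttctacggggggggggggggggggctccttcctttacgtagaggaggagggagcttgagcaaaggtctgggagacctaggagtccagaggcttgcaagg
The Col3a1 window has 35.2% G or C, with TATAAA 117 bases and CATTCC 168 bases before the start. The Col5a1 window has 76.4% G or C, with GGGCGG 205 and 73 bases before the start. Col8a1 has 4 matches to GGGCGG, and this Col6a2 window has 1. RefSeq gives Col6a2 a second start, whose window (not printed) shares 226 bases with an exon of the gene and holds 3 matches to GGGCGG, of which a pair overlaps, and 1 to CATTCC. Both windows enter the shares that follow. Across the 38 collagen windows, 57.9% held GGGCGG, against 32.7% of all 32851 windows in the table, and the median share of G or C was 59.0% against 52.4%. TATAAA was in 13.2% of collagen windows and 12.4% of all, CCAAT in 34.2% and 33.9%, CATTCC in 10.5% and 12.6%, and TGANTCA in 2.63% (Col6a1) and 6.75%. These are matches of letters, and no binding was measured.

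The first comparison sets FLICs against ES cells. The collagen genes differed between the cell types in amount and in kind: FLICs held 12.4 times the summed collagen level of ES cells, most of it fibrillar and type IV, while the collagen RNA of ES cells was mostly that of 1 gene, Col18a1. Levels of different genes are compared here as CPM per kilobase (kb) of the deposited gene length. Summed over 44 genes, that level was 55.6 and 62.1 in untreated ES cells and 728 in untreated FLICs, and 47.1 and 68.7 in OHT ES cells and 1048 in OHT FLICs. The fibrillar sum was 5.89 and 7.29 in untreated ES cells and 359 in untreated FLICs, a 54.5-fold difference. For basement membrane collagens the sums were 7.48 and 7.19 against 220, or 29.9-fold, for FACITs 2.87 and 3.19 against 48.1, or 15.9-fold, and for the other collagens 39.4 and 44.5 against 102, or 2.43-fold. With OHT the 4 folds were 74.9, 31.1, 18.0 and 3.67. They were 67.3, 36.1, 17.7 and 2.83 without OHT ES replicate 1, and 84.6, 27.4, 18.4 and 5.19 without OHT ES replicate 2. The fold of the whole sum with OHT was 18.1, and 15.3 and 22.2 without these libraries in turn. Without scaling by length, the fold of the FACIT sum was 57.5 in untreated and 63.6 in OHT cells (Col12a1 has a deposited length of 9386 bases), and that of the other collagens was 1.51 and 2.22. Collagens took 0.0240% to 0.0382% of all counts in ES cells, and 0.355% and 0.503% in FLICs without and with OHT. The ES cell and mesenchyme marker sums moved in the same contrast, and their part in it was not tested. In bulk RNA, fewer cells of a type and less RNA per cell cannot be told apart.

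**Figure D1:**
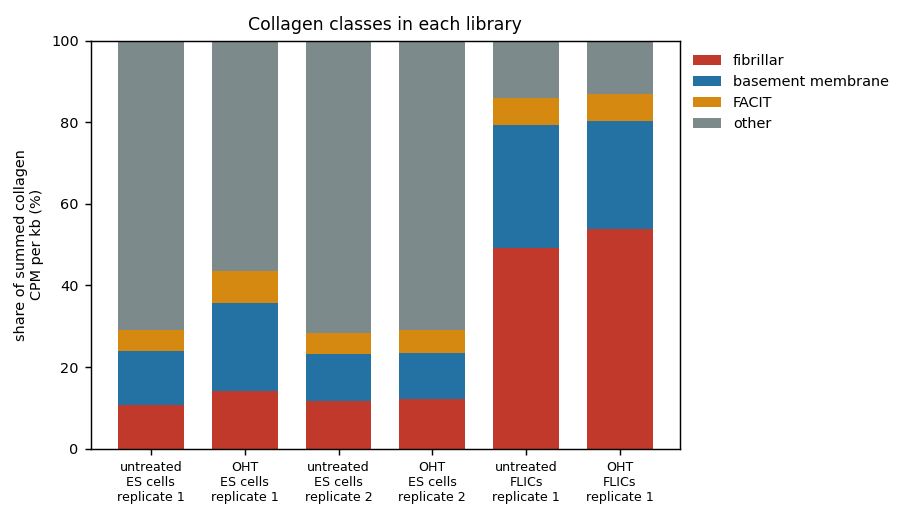
Stacked bars give the share of each collagen class in the summed CPM per kb of the 44 collagen genes (vertical axis, percent), with 1 bar per library. The fibrillar share is 10.6% to 14.2% in the 4 ES cell libraries and 49.2% and 53.8% in the 2 FLICs libraries, while the other collagens go from 56.4% to 71.6% down to 14.0% and 13.2%.

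Of the 44 genes, 37 passed the filter on low counts. Tested with edgeR's quasi-likelihood method, 22 of these 37 rose in untreated FLICs, 7 fell and 8 were not called. Among all 15535 genes tested, 26.2% rose and 28.7% fell. With OHT, 21 collagen genes rose and 7 fell, against 28.4% and 29.3% of all genes tested. The median log2 fold change of the 37 was 3.80 untreated and 3.37 with OHT, against -0.11 and -0.07 over all genes tested. With the 3 members that had no count in 1 group set at their bound, it was 2.87 untreated and 3.37 with OHT. Of the 37 genes, 7 reached 10 counts only in FLICs libraries (Col3a1, Col4a6, Col6a1, Col8a1, Col8a2, Col12a1 and Col28a1) and 5 only in ES cell libraries (Col6a4, Col6a5, Col6a6, Col13a1 and Col26a1). These 12 passed the filter through the cell type where they are high, so their calls and the counts that include them describe the genes and do not support the difference. The 7 genes not tested were Col4a3, Col4a4, Col9a1, Col10a1, Col19a1, Col24a1 and Col25a1, with at most 8 counts in any library. Among them, Col10a1, the collagen of hypertrophic cartilage, had no count in any library. The FLICs contrasts rest on 1 FLICs library per treatment, which is assumed to vary as the ES cell libraries do. Without OHT ES replicate 1, 22 collagen genes rose and 11 fell with OHT, and without OHT ES replicate 2, 23 rose and 7 fell. All 28 genes called with OHT were among those called in each of these fits. In the untreated comparison the number that fell was 4 without either untreated library in turn, and 18 rose and 2 fell with a filter at 5 CPM.

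**Figure D2:**
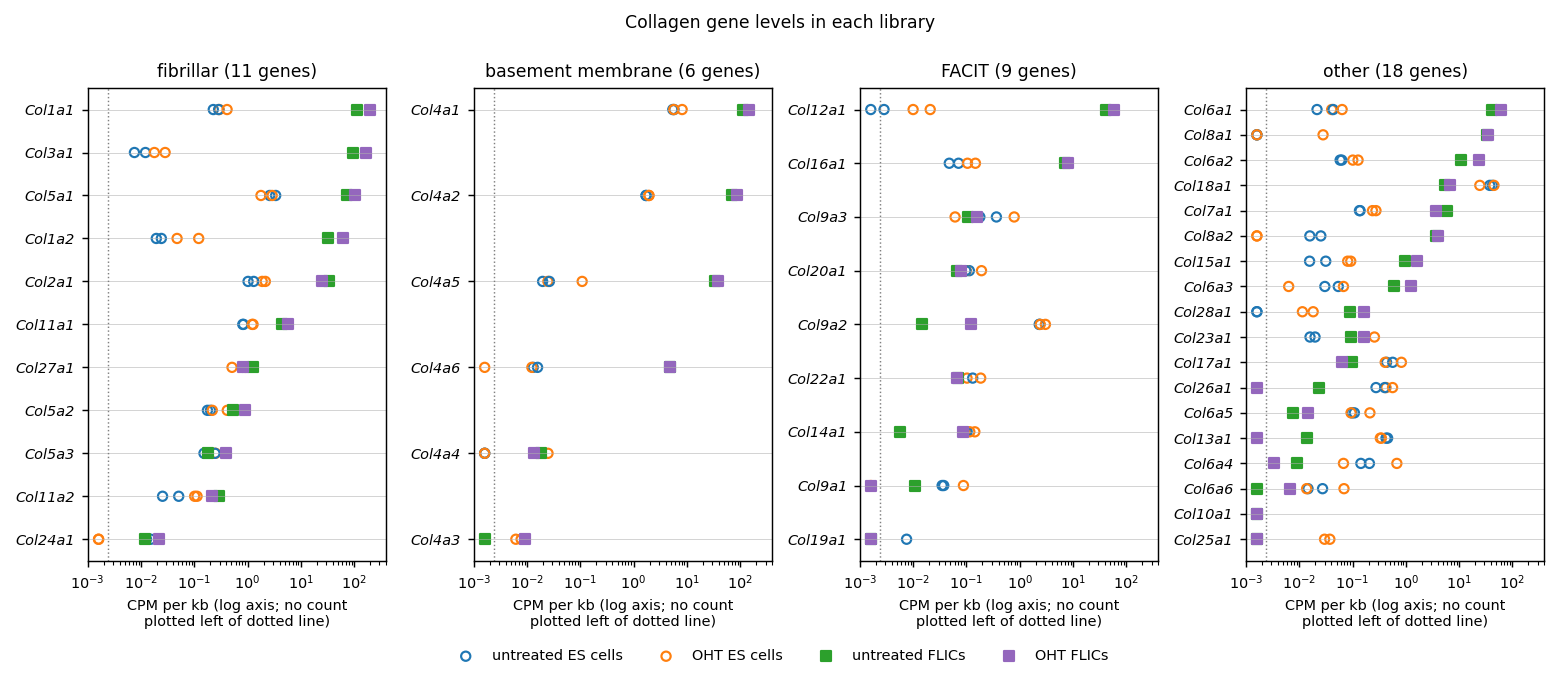
Each point is the level of 1 collagen gene in 1 library, in CPM per kb on a log axis, with the 44 genes in 4 panels by class and genes without a count drawn left of the dotted line. FLICs points of Col3a1, Col12a1 and Col8a1 lie at 32.8 to 164 CPM per kb, far right of the ES cell points, while Col18a1 and Col9a2 lie higher in ES cells.

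Fibrillar collagens had the highest class sum per kb in FLICs, though the highest single gene in CPM untreated was Col4a1 of type IV, at 574 CPM. Of the 10 fibrillar genes tested, 8 rose in untreated FLICs and 7 with OHT, and none fell. Among all genes tested 26.2% rose and 28.7% fell untreated, and 28.4% and 29.3% with OHT. Col1a1 (ENSMUSG00000001506, chromosome 11, 94936224 to 94953042, GRCm38), a chain of type I collagen, the main collagen of bone, skin and tendon, was at 0.993 and 1.25 CPM in untreated ES cells against 495 CPM in untreated FLICs. With OHT it stood at 1.28 and 1.80 CPM in ES cells and 881 CPM in FLICs. Its log2 fold change was 8.77 (SE 0.27, edgeR adjusted p = 3.87e-05) untreated and 9.17 (SE 0.27, edgeR adjusted p = 4.07e-05) with OHT. Col1a2, the partner chain, had 3 counts in each untreated ES cell library and 136 CPM in untreated FLICs. Col3a1 (chromosome 1, 45311538 to 45349706), whose collagen accompanies type I in vessels and skin, had 1 and 2 counts in untreated ES cells and 13685 in untreated FLICs (422 CPM). That is a ratio of 9544 in CPM, with an exact 95% counting interval from 3265 to 46287. In OHT cells it had 4 and 2 counts against 31548, and its log2 fold change was 12.71 (SE 0.27). Both FLICs libraries thus lie above each ES cell library for these 3 genes. They were named for their high levels in FLICs, so this describes them and does not support the difference.

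Col5a1, Col2a1, Col11a1 and Col27a1 already stood at 4.57 CPM or more in each untreated ES cell library, whereas Col11a2 had 4 and 10 counts there and Col24a1, which was not tested, had 2 and 3. Col5a1 (chromosome 2, 27886425 to 28039514), whose type V chain is known to start and limit the width of fibrils, was at 14.6 and 18.9 CPM in untreated ES cells against 420 CPM in FLICs (log2 fold change 4.64, SE 0.32, edgeR adjusted p = 0.000178). Col2a1 (chromosome 15, 97975602 to 98004695), the main collagen of cartilage, was at 4.57 and 5.83 CPM in untreated ES cells against 153 CPM in FLICs. Cartilage markers did not move as 1 group beside it: of 7 tested, 3 rose in untreated FLICs and 3 fell. The shares over all genes tested were 26.2% and 28.7%. Sox9, a regulator of cartilage genes, rose and stood at 43.8 CPM in untreated FLICs, whereas the cartilage proteoglycan gene Acan fell to 0.556 CPM and Matn1 and Hapln1 had no count in either FLICs library. Their part in the Col2a1 level was not tested. Col11a1 rose by 2.42 (SE 0.19, edgeR adjusted p = 0.000254). Col5a3 and Col27a1 were not called in either treatment, with log2 fold changes from -0.12 to 0.52. Col11a2 was called higher in untreated FLICs, at 1.51 CPM, though not without untreated ES replicate 1, and it was not called with OHT (log2 fold change 1.03, edgeR adjusted p = 0.125).

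Type IV collagen, the basement membrane collagen, rose in all 4 of its tested genes in both treatments, where 26.2% (untreated) and 28.4% (OHT) of all genes tested rose. Col4a1 (chromosome 8, 11198423 to 11312826) was at 29.4 and 27.9 CPM in untreated ES cells against 574 CPM in FLICs (log2 fold change 4.33, SE 0.25, edgeR adjusted p = 0.000103). Col4a2 (chromosome 8, 11312805 to 11449287) was at 8.77 and 8.76 CPM against 353 CPM, with 5.33 (SE 0.17, edgeR adjusted p = 3.87e-05). These 2 genes are divergent, and their annotated starts overlap by 22 bases. Col4a5, on chromosome X, had 3 and 5 counts in untreated ES cells but reached 171 CPM in FLICs. Its divergent neighbour Col4a6, 1308 bases away, had 2 and 3 counts and stood at 24.0 CPM. Col4a3 and Col4a4, the third such pair and known from kidney and lung basement membranes, had at most 4 counts in any library. Within these pairs the chains did not keep equal levels: in untreated FLICs the Col4a1 to Col4a2 ratio per kb was 1.62 (exact 95% counting interval 1.59 to 1.66) and that of Col4a5 to Col4a6 was 7.15 (6.63 to 7.71). The first ratio was 2.95 to 4.18 in ES cells.

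Laminins and other basement membrane partners moved in both directions. Of 16 partner genes tested, 4 rose and 8 fell in untreated FLICs, where 26.2% of all genes tested rose and 28.7% fell. With OHT 5 rose and 9 fell, against 28.4% and 29.3%, and the medians were -0.82 and -1.04 on the log2 scale. The 4 that rose untreated, named for that after the values were seen, were the laminin chains Lamb1 (2.21) and Lamb2 (1.09), the nidogen gene Nid1 (1.31) and Smoc2 (7.66), and each rose with OHT too. Lamc1, the laminin chain shared by most laminins, went from 618 and 640 CPM in untreated ES cells to 248 CPM in FLICs (log2 fold change -1.34, SE 0.22, edgeR adjusted p = 0.00408). Nid2, which links laminin to type IV collagen, fell by 2.60 on the log2 scale. Hspg2, the gene of perlecan, was at 385 and 471 CPM against 397 CPM untreated and was not called there (edgeR adjusted p = 0.666). It was called higher with OHT (0.57, SE 0.19, edgeR adjusted p = 0.0467), and Lama5 was called in neither treatment.

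Of 7 FACITs tested, 2 rose and 2 fell in untreated FLICs, shares near the 26.2% and 28.7% of all genes tested. With OHT 2 rose and 1 fell, against 28.4% and 29.3%. Col12a1 (chromosome 9, 79598991 to 79718831), whose protein coats type I fibrils, had 0 and 1 counts in untreated ES cells against 12438 in FLICs (384 CPM). The ratio in CPM was 26024, with an exact 95% counting interval from 4670 to 1028000. In OHT cells it had 3 and 5 counts against 24341, and its log2 fold change was 11.93 (SE 0.34). Col16a1 rose from 0.232 and 0.346 CPM to 33.9 CPM. Col9a2 (chromosome 4, 121039385 to 121055322), a chain of the cartilage FACIT type IX, went the other way. It had 145 and 184 counts in untreated ES cells against 1 in FLICs, and 201 and 128 against 11 with OHT. Its log2 fold changes were -7.13 (SE 0.55, edgeR adjusted p = 0.000259) and -4.47 (SE 0.39, edgeR adjusted p = 0.000379). Col14a1 fell in untreated FLICs, from 16 and 21 counts to 1, but stood at 20 counts in OHT FLICs, near the 25 and 16 of OHT ES cells, and was not called there (edgeR adjusted p = 0.339). The untreated call was lost without either untreated ES cell library in turn and with DESeq2. Col9a3, Col20a1 and Col22a1 were called in neither treatment and stood at or below 1.61 CPM in each library.

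Among the other collagens, 3 of the 6 type VI genes and both type VIII genes rose in each treatment, and the transmembrane collagens Col13a1 and Col17a1 fell. Of 16 tested, 8 rose and 5 fell in untreated FLICs, where 26.2% of all genes tested rose and 28.7% fell. With OHT 8 rose and 6 fell, against 28.4% and 29.3%, so the falls lay near the share over all genes. Col6a1, Col6a2 and Col6a3 encode the chains of the common type VI collagen, a beaded filament around cells. Col6a1 had 2 and 5 counts in untreated ES cells and stood at 127 CPM in FLICs, Col6a2 at 0.199 and 0.213 CPM against 37.2 CPM, and Col6a3 at 0.298 and 0.532 CPM against 5.93 CPM. The alternative type VI chains went otherwise. Col6a5 fell from 26 and 29 counts to 2 (log2 fold change -3.64, SE 0.93), a call lost without untreated ES replicate 1. Col6a4 had 30 and 54 counts in untreated ES cells against 2 in FLICs, and 15 and 120 against 1 with OHT. It was called lower with OHT by edgeR and not untreated, where it was called with DESeq2 and without either OHT ES cell library in turn. Col6a6 had 3 and 7 counts in untreated ES cells and none in untreated FLICs, and 3 and 12 against 2 with OHT. It was called in neither treatment. Col8a1 (chromosome 16, 57624258 to 57754737), a chain of the network under endothelium and in the eye, had no count in either untreated ES cell library but 73.3 CPM in untreated FLICs, at least 1656-fold higher taking 3 counts over the group as the floor. Col7a1 (chromosome 9, 108953586 to 108984875), which makes the anchoring fibrils of skin, rose from 1.19 and 1.22 CPM to 51.6 CPM. Col15a1 rose as well, to 4.01 CPM.

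Col18a1 (chromosome 10, 77052178 to 77166548), a basement membrane zone collagen and the source of endostatin, was the highest collagen gene per kb in each of the 4 ES cell libraries. It made up 67.7% and 68.2% of the summed collagen CPM per kb in untreated ES cells, 52.0% and 65.8% in OHT ES cells, and 0.750% and 0.638% in FLICs without and with OHT, where it ranked 15 and 14. Its own level was 204 and 229 CPM in untreated ES cells against 29.5 CPM in FLICs, and 132 and 244 CPM against 36.2 CPM with OHT. The log2 fold changes were -2.87 (SE 0.42, edgeR adjusted p = 0.00255) and -2.38 (SE 0.41, edgeR adjusted p = 0.00432). Col17a1, Col13a1 and Col26a1 also fell. Col17a1, of the hemidesmosomes of epithelia, went from 1.92 and 2.50 CPM to 0.432 CPM, Col13a1 from 31 and 36 counts to 1, and Col26a1 from 11 and 20 counts to 1. Of the other transmembrane collagens, Col23a1 had 1 and 1 counts in untreated ES cells and 5 in FLICs and was not called, and Col25a1 was not tested. These calls were made in both treatments, but in the untreated comparison that of Col17a1 was lost without untreated ES replicate 2, and that of Col26a1 without either untreated library and with DESeq2.

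**Figure D3:**
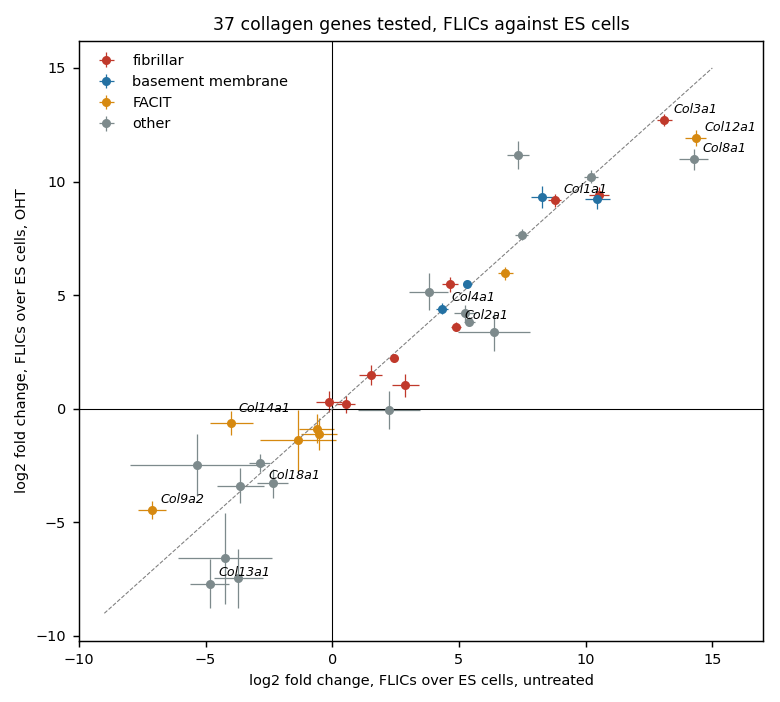
Points are the 37 collagen genes tested, with the log2 fold change of FLICs over ES cells in untreated cells (horizontal) and OHT cells (vertical), coloured by class, with standard errors as bars and equality as a dashed line. Genes range from -7.13 (Col9a2) to 14.34 (Col12a1) untreated, where fitted values of genes with 0 or 1 counts in ES cells depend on the prior count, and Col14a1 and Col9a2 lie above the dashed line among the genes lower in FLICs.

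The genes that process collagen were described from lists of pathway members. Among all genes tested 26.2% rose and 28.7% fell untreated, and 28.4% and 29.3% with OHT. How many list members passed the filter through FLICs alone was not counted, so the counts describe the lists. All 7 crosslinking genes rose in both treatments. Loxl2, a lysyl oxidase, was at 0.463 and 0.852 CPM in untreated ES cells against 265 CPM in FLICs (log2 fold change 8.62, SE 0.30, edgeR adjusted p = 3.87e-05), and Lox itself had no count in either untreated ES cell library against 34.7 CPM in FLICs. Pxdn, which crosslinks type IV collagen, rose by 4.64 on the log2 scale. Of 20 hydroxylation and folding genes, 13 rose and none fell untreated, and 16 rose and 1 fell (Colgalt2) with OHT. Serpinh1, the collagen chaperone HSP47, stood at 125 and 109 CPM against 1855 CPM, while the general folding genes Hspa5 and P4hb rose by 1.22 and 0.91. Of 14 secretion and propeptide genes, 7 rose and 1 fell. Bmp1, the propeptidase of fibrillar collagens, rose from 2.22 and 3.14 CPM to 286 CPM, whereas the secretion genes Mia2 and Sec23a were not called untreated. Of 12 collagen receptors 10 rose, among them Itgb1 (2.63) and Ddr1 (2.53), and of 10 collagen proteases and inhibitors 8 rose, among them Mmp2 (4.90) and Timp2 (7.21), and 2 fell. Of 12 fibril partners 10 rose, Fn1 by 1.32 and Tnc by 11.81, and 1 fell.

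The next comparison sets OHT against untreated FLICs, with 1 library each and therefore no test. Most collagen genes expressed in FLICs stood higher in the OHT library, by less than 2-fold. The summed level per kb was 1048 against 728, a ratio of 1.44, with 1.57 for fibrillar, 1.27 for basement membrane, 1.41 for FACIT and 1.35 for other collagens. Of the 24 collagen genes averaging 1 CPM or more over both FLICs libraries, 20 were higher on the log2(CPM + 1) scale and 4 lower, with a median difference of 0.39. Over all 11789 genes at that level 56.4% were higher, with a median of 0.03. On that scale Col6a2 passed 2-fold upward and no collagen did so downward, against 0.424% and 0.102% of those genes. As plain ratios of CPM, Col5a3 (2.15, from 0.957 to 2.06 CPM) and Col6a3 (2.09) passed 2-fold too, since the added 1 CPM shrinks the difference of low genes.

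Col6a2 (chromosome 10, 76595762 to 76623630) had 37.2 CPM untreated and 78.8 CPM with OHT, a difference of 1.06. Col6a3 followed with 5.93 and 12.4 CPM (0.95), Col1a2 with 136 and 251 CPM (0.88) and Col1a1 with 495 and 881 CPM (0.83). Exact 95% counting intervals on the ratio, such as 1.78 to 1.91 for Col1a2, cover counting error only, and the spread between FLICs cultures was not measured. The 4 lower genes were Col7a1, at 51.6 and 32.3 CPM (-0.66), Col27a1, at 7.10 and 4.57 CPM (-0.54), Col2a1, at 153 and 111 CPM (-0.46), and Col11a2, at 1.51 and 1.14 CPM (-0.23). Col8a1 was nearly level, at 73.3 and 78.1 CPM. Among the partner lists, 10 of 10 fibril partner genes at this level were higher, with a median of 0.69, and Postn, Ogn and Fmod passed 2-fold. Postn, of periostin, stood at 13.0 and 47.3 CPM, and these 3 were picked for their size after the values were seen. Crosslinking genes were higher in 6 of 7 (median 0.59), whereas folding genes had a median of 0.16 and basement membrane partners of 0.05. The fibroblast and mesenchyme sum was also higher, 15281 against 12707 CPM, with Acta2 at 7920 against 5936 CPM, and the ES marker sum was lower, 97.6 against 152 CPM. Their part in the collagen difference was not tested.

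**Figure D4:**
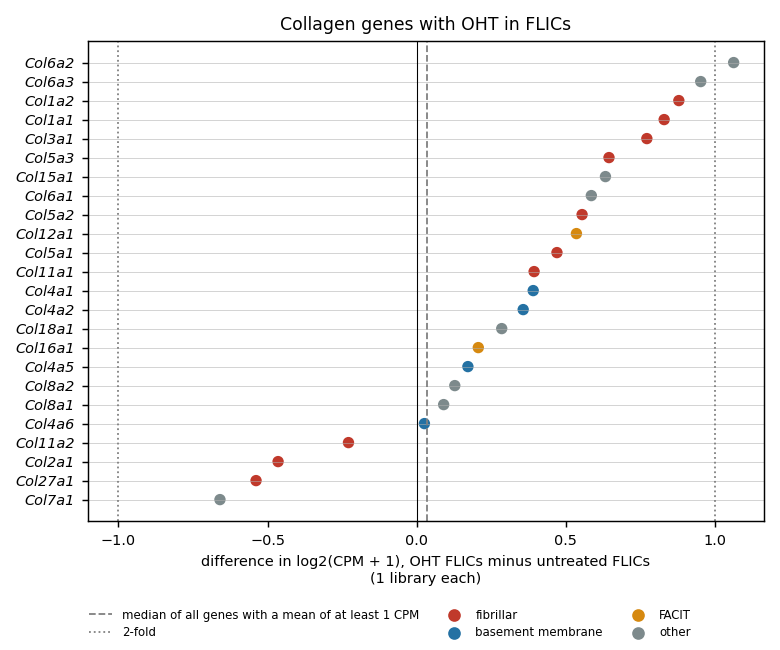
Points give the difference in log2(CPM + 1) between the OHT and untreated FLICs libraries for the 24 collagen genes averaging 1 CPM or more, coloured by class, with dotted lines at 2-fold and a dashed line at the median of all genes at that level. Differences run from -0.66 (Col7a1) to 1.06 (Col6a2), and 20 points lie right of 0.

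In ES cells, OHT changed no collagen gene by the edgeR test, against 0.521% of all genes tested called higher and 0.0129% lower. The summed level per kb was 58.9 ± 4.59 (SD, n = 2) untreated and 57.9 ± 15.2 (SD, n = 2) with OHT, a difference within the spread of the OHT pair. Of the 37 collagen genes 30 had a positive log2 fold change and 7 a negative one, where 7568 of the 15535 genes tested had a positive one, with a median of 0.59 against -0.01 over all genes tested, or 0.59 without the 3 genes that had 3 counts or fewer in both groups and none in 1 of them. That median was 0.78 without OHT replicate 1, 0.35 without OHT replicate 2 and 0.92 without untreated replicate 2. An unadjusted p under 0.05 was found for 9 collagen genes and for 2841 genes in all, and DESeq2 called 1 (Col2a1). Libraries of the 2 groups did not overlap for 19 collagen genes on the higher side and 3 on the lower side, where 25.2% and 27.6% of all genes tested were so placed. Leaving out an OHT library raised the calls, to 13 higher and none lower without OHT replicate 1, and to 10 higher and 6 lower without OHT replicate 2. In those fits the spread rests on the untreated pair, and the share of all genes called in them is not given here. Some log2 fold changes turned sign between them: Col6a4 was 1.93 and -1.35 and Col9a3 1.49 and -2.13 without OHT replicate 1 and 2.

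The 5 genes with the smallest p were low or moderate in level. Col7a1 stood at 1.19 and 1.22 CPM untreated and 2.09 and 2.43 CPM with OHT (log2 fold change 0.90, SE 0.20, edgeR adjusted p = 0.130, and 1.01 and 0.83 without OHT replicate 1 and 2 in turn). Col2a1 stood at 4.57 and 5.83 CPM against 8.42 and 9.64 CPM (0.79, SE 0.18, edgeR adjusted p = 0.135, and 0.88 and 0.72 without these libraries). Col11a1, a fibrillar partner of type II collagen, stood at 4.60 and 4.74 CPM against 7.18 and 6.90 CPM (0.59, SE 0.16, edgeR adjusted p = 0.171, and 0.56 and 0.66 without these libraries). For these 3, and for Col15a1 and Col1a2 below, the groups did not overlap, as for 25.2% of all genes tested on the higher side. All 5 were picked by their p in this contrast, so the separation only describes them. The main edgeR fit, with 1 mean per group, called none of the 5, and DESeq2 called Col2a1. Calls of a fit with a replicate block are given in the closing section. Col15a1 had 2 and 5 counts against 11 and 10, and its log2 fold change was 1.89 and 1.74 without OHT replicate 1 and 2 in turn. Col1a2 had 3 and 3 counts against 16 and 5, with 1.12 without OHT replicate 1 and 2.49 without OHT replicate 2. Col18a1, which carries most of the sum, stood at 204 and 229 CPM untreated and 132 and 244 CPM with OHT, so that its groups overlapped. On the log2 scale the difference was -0.20 (SE 0.29, edgeR adjusted p = 0.744), and it was 0.18, not called, without OHT replicate 1 and -0.67, called lower, without OHT replicate 2. The sum of the other collagens likewise was 0.898 times the untreated value, 1.16 times without OHT replicate 1 and 0.634 times without OHT replicate 2.

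**Figure D5:**
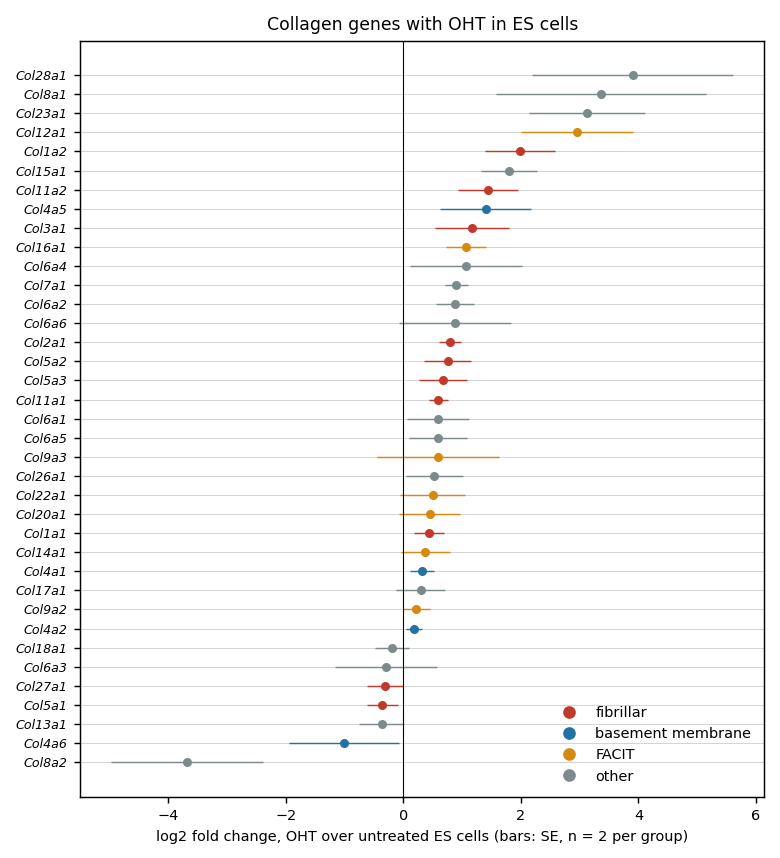
Points are the log2 fold changes of OHT over untreated ES cells for the 37 collagen genes tested, coloured by class, with standard errors as bars (n = 2 per group). They run from -3.68 (Col8a2) to 3.90 (Col28a1), and these ends belong to genes with at most 2 counts in any ES cell library, whose fitted values depend on the prior count.

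Whether OHT acted differently in FLICs and in ES cells was tested as an interaction. No gene of the 15535 tested was called (0.0%), so no collagen gene was, and an unadjusted p under 0.05 was found for 5 collagen genes and 1057 genes in all. DESeq2 called no collagen gene either. The fit without OHT ES replicate 1 called 1 collagen gene higher and 4 lower, and that without OHT ES replicate 2 called 5 higher and 3 lower. Col7a1 and Col2a1 had opposite signs in the 2 cell types: differences of -1.57 (SE 0.30, edgeR adjusted p = 0.638) and -1.26 (SE 0.29, edgeR adjusted p = 0.638) on the log2 scale. Each fit without an OHT ES cell library leaves 1 in that group. The share of all genes called in such fits is not given. Col9a2 and Col14a1 had differences of 2.66 and 3.36 and rested on 1 count each in untreated FLICs.

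Chains that assemble together did not stand at 1 ratio in FLICs. Per kb, Col1a1 exceeded Col1a2 by a factor of 3.44 (exact 95% counting interval 3.32 to 3.55) untreated and 3.31 (3.24 to 3.38) with OHT, intervals that overlap. Col6a1 exceeded Col6a2 by a factor of 3.77 (3.54 to 4.03) untreated and 2.68 (2.58 to 2.79) with OHT, and Col6a3 by factors of 68.8 and 49.5. Col5a1 exceeded its partner Col5a2 by a factor of 138 (111 to 174) untreated and 115 (99.3 to 134) with OHT, whereas in ES cells that ratio was 4.29 to 16.8. Col5a2 was singled out after its values were seen. It was called higher in both treatments, but not without either untreated ES cell library in turn nor with DESeq2. It stood at 0.794 to 1.87 CPM in ES cells and at 2.44 and 4.05 CPM in FLICs, and lies 24614 bases from Col3a1 on chromosome 1, with the genes' ends facing each other. In FLICs Col3a1 exceeded it by factors of 177 and 182 per kb. Col8a1 exceeded Col8a2 by factors of 8.89 and 8.58. These ratios use 1 deposited length per gene, so an isoform of another length would shift each of them.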

How the data were processed

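Total RNA (RNeasy Mini Kit) was made into stranded TruSeq Total RNA libraries, per the labels' protocols. Gene counts, as the authors deposited them, are whole numbers without normalization, beside a length in bases. Salmon, DESeq2 and GRCm38 are named, without versions, in the submitters' processing notes. Neither their roles nor an annotation version is given in the sources used here. Multiples of 3 make up 77.6% of the lengths, and 22 of 44 collagen lengths lie within 3 bases of the longest GENCODE coding length. A symbol was found for 22509 genes, and 91 had none. Gene positions are from GENCODE M21 (GRCm38).

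Counts of the 6 libraries (totals 23534551 to 43965309) were filtered by group with filterByExpr, scaled by TMM and fitted with edgeR 4.0.16 (R 4.3.3, limma 3.58.1), with 1 mean per group. P-values were adjusted by Benjamini-Hochberg over the 15535 genes tested, with calls at 0.05. Residual degrees of freedom were 2, all from ES cells, with 3.79 prior degrees of freedom and an 18.5% common biological coefficient of variation. CPM uses TMM-scaled library sizes. OHT in FLICs was described on log2(CPM + 1), counted at 2-fold and a mean of at least 1 CPM. Intervals on ratios and floors of 3 counts cover counting error only. The code was tested on simulated data.

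The members and lists were chosen with earlier results of these data known. Genes were named by a rule: per class the 4 highest in FLICs and 3 highest in ES cells per kb, those called lower in FLICs, the 5 smallest p for OHT in ES cells, the 4 largest OHT differences each way in FLICs, and the 4 highest genes of each pathway list. Alternatives were relative log expression scaling, DESeq2 1.42.0, other filters and pseudocounts, a replicate block, ES cell libraries alone and leaving out each ES cell library.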

Additional observations from a re-analysis of the deposited data

How the results depend on the processing

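The same numbers in the titles of untreated and OHT ES cells are not said to mark shared cultures. Their deviations correlated (r = 0.345 over 15535 genes, from 2 pairs), but with 2 pairs and no such label the libraries are taken to share only a number. With the replicate block, 2 collagen genes were called higher for OHT in ES cells (Col2a1 and Col7a1), against 0 without it, and 31 and 28 were called between cell types, against 29 and 28, the added genes being Col27a1 and Col6a4 in untreated cells. DESeq2 called 1 for OHT in ES cells. Leaving out each ES cell library in turn gave 0 to 13 collagen genes higher and 0 to 6 lower for OHT in ES cells, 4 to 10 lower in untreated FLICs, 7 to 11 lower in OHT FLICs, and 0 to 5 higher and 0 to 4 lower for the response difference. A filter at 5 CPM in 2 libraries left 2 lower in each cell type comparison, since it tests fewer genes. With a pseudocount of 0.5 CPM, 2 genes passed 2-fold higher in FLICs with OHT. With no minimum level, the median collagen difference there was 0.14.

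Over 30 named genes and 802 single-gene comparisons, 741 kept direction and side of the threshold, and 12 changed sign, whatever their calls. Of those that kept direction, 40 gained a call and 9 lost one. For OHT in ES cells, leaving out 1 library gave log2 fold changes of -0.262 to 0.711 for Col17a1, -0.670 to 0.178 for Col18a1, -0.0403 to 0.869 for Col20a1, -0.732 to 0.0443 for Col27a1, -2.67 to 0.642 for Col6a3, -1.35 to 1.93 for Col6a4, -0.122 to 1.09 for Col6a5 and -2.13 to 1.49 for Col9a3. Signs turned without OHT replicate 1 (Col18a1, Col27a1, Col6a3, Col6a5) or 2 (Col17a1, Col20a1, Col6a4, Col9a3), and for Col6a3 also without untreated replicate 2 (0.219). In OHT FLICs against OHT ES cells the ranges were -0.160 to 0.640 for Col27a1 and -2.32 to 1.32 for Col9a3, and Col9a3 was 0.228 with the replicate block. The cause was not tested. Col8a1 gave no value for OHT in ES cells without OHT replicate 1, having no count left there. Depth limits the rare members: in the shallowest library, a gene without a count may stand at up to 3 counts, or 0.118 CPM.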
